A study of Homo sapiens with 6 samples.

Results

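The transcripts of 10 regulators of ERK feedback were followed in MOLT-4, a cell line grown from a human T-cell leukemia (T-ALL). They are NRAS, DUSP4, DUSP5, DUSP6, SPRY1, SPRY2, SPRY4, SPRED1, SPRED2 and ETV5. These were picked by gene symbol from known function, with earlier results of these data known. Each symbol has 1 gene among the 60640 gene identifiers of the tables. PolyA RNA-seq covered 3 libraries of wild type cells, the control of the CRISPR knockout, and 3 libraries labelled IK-KO, from cells whose IKZF1 gene, which encodes IKAROS, had been targeted by CRISPR-Cas. All cells share the MOLT-4 background, were grown in RPMI1640 with 10% serum and the labels name no other agent. Both the edited cells and their control were bought, and the study states that it checked the knockout by PCR and western blot. It blotted 2 clones, which it names IKZF1-null, and the labels do not say which was sequenced. Other differences between the 2 lines and the loss of IKAROS therefore cannot be told apart. The labels do not say whether libraries came from separate cultures, so the spread behind each p-value is that between these libraries and may be technical.

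In the ERK pathway a receptor loads RAS proteins with GTP, and RAS then activates the kinases RAF, MEK and ERK in turn. Active ERK induces its own brakes: Sprouty proteins (SPRY) act near the receptor and RAS, SPRED proteins bring the GTPase-activating protein neurofibromin to RAS, and dual-specificity phosphatases (DUSP) remove the activating phosphates from ERK. ETV5 is an ETS family transcription factor whose gene is a common transcriptional target of the pathway. In developing T cells the pathway carries signals of the T-cell receptor, and MOLT-4 is known to carry an activating NRAS mutation, which FPKM tables cannot show.

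Each value is an FPKM, that is fragments scaled for transcript length and for library depth, so levels of different genes can be compared per length. Tables summed to between 699352 and 738051 FPKM per library. By the width of the deposited confidence bounds, between 14.6 and 17.5 fragments stood behind each FPKM per kilobase, with overlapping ranges in both groups. The RNA of IKZF1 itself was higher, and not lower, where the gene was targeted: its mean went from 121 FPKM in wild type to 225 FPKM in IK-KO (log2 scale 0.89, limma adjusted p 0.00296). Directions are therefore given for the libraries labelled IK-KO, and RNA tables cannot show whether IKAROS protein was lost, which the study checked by western blot. Of 10 T-lineage markers, all had a mean of at least 1 FPKM in wild type and 9, all but CD28, in the libraries labelled IK-KO, with sums of 1443 to 1518 FPKM and 1689 to 1891 FPKM. Single T-lineage markers moved apart under these sums: CD2 ranged from 58.9 to 63.7 FPKM in wild type and from 4.98 to 5.39 FPKM in IK-KO, CD7 from 15.2 to 16.8 and from 3.17 to 5.09, CD5 from 24.1 to 26.2 and from 10.2 to 13.4, and CD28 from 5.50 to 6.91 and from 0.169 to 0.350. CD247 was higher, at 65.0 to 66.6 FPKM in wild type and 232 to 262 FPKM in IK-KO. The part of these shifts in the results below was not tested. The 5 B-lineage markers summed to at most 3.62 FPKM in any library, the 5 myeloid markers to at most 0.617, the 4 erythroid ones to at most 0.612 and the 4 fibroblast and epithelial ones to at most 0.120. The defining genes MS4A1, PAX5, MPO, CSF1R, HBB, EPCAM and COL1A2 stayed under 0.1 FPKM in every library.

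SPRY2, ETV5 and SPRED1 rose and SPRY1 fell in the libraries labelled IK-KO, whereas NRAS and DUSP6 stayed within the spread between libraries. The direction therefore differed within the Sprouty family: SPRY1, its most abundant member in wild type, dropped by 1.28 on the log2 scale while SPRY2 gained 1.54. Of the 10 genes, 7 had a mean of at least 1 FPKM over the 6 libraries and entered the test (limma on log2(FPKM + 1), Benjamini-Hochberg over 12637 genes), and 4 of these 7 had an adjusted p under 0.05, called below. Among all tested genes 19.9% were called. Of the 7 genes 3 were called higher, against 10.1% of all tested genes, and 1 was called lower, against 9.74%. A called change of at least 2-fold on this scale was seen in 3 of the 7 and in 3.19% of all tested genes. Groups did not overlap in 5 of the 7, and in 39.0% of all tested genes. With the study's stated limits of an unadjusted p under 0.05 and a 2-fold change set on this scale, 3 of the 7 passed (SPRY1, SPRY2 and ETV5), beside 3.53% of all tested genes. SPRED1 changed 1.71-fold on this scale and had a ratio of group means of 2.05 on the FPKM scale. The median log2 change was 0.28 over the 7 genes and 0.02 over all tested genes. In bulk RNA, a change in the share of cells that express a gene and a change in RNA per cell cannot be told apart.

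**Figure D1:**
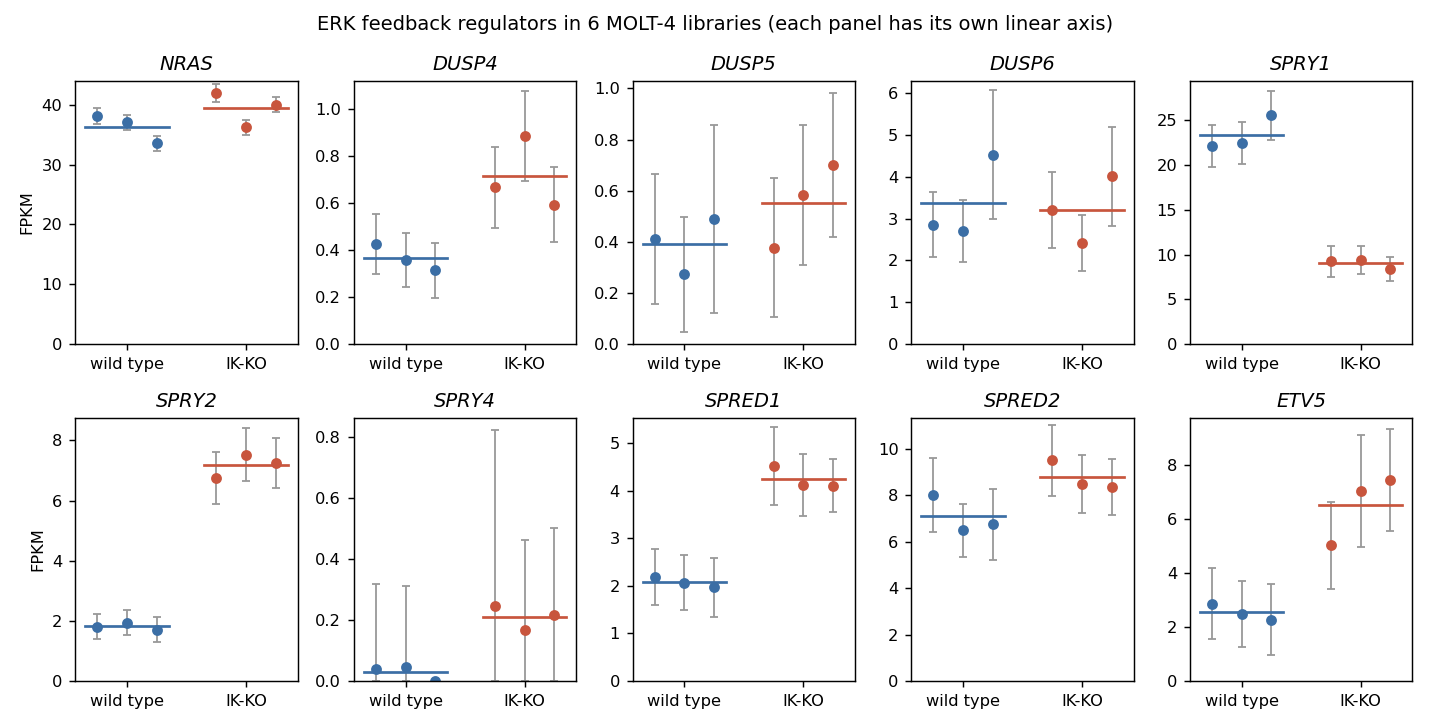
FPKM of each of the 10 genes in the 3 wild type (blue) and 3 IK-KO labelled libraries (red), replicates 1 to 3 from left to right, with the deposited confidence bounds as grey bars and group means as lines; each panel has its own linear axis from 0. SPRY1 lies lower and SPRY2, SPRED1 and ETV5 lie higher in all 3 IK-KO labelled libraries.

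Positions are those of the tables (hg38, counted from 1). NRAS (ENSG00000213281.5, chromosome 1, 114704469 to 114716771, minus strand), the RAS isoform at the head of the cascade, was the most abundant of the 10 genes. Its values were 38.1, 37.1 and 33.5 FPKM in wild type replicates 1 to 3, against 42.0, 36.3 and 40.0 FPKM in IK-KO replicates 1 to 3. The groups overlapped, since IK-KO replicate 2 lay below 2 of the wild type libraries. Means were 36.3 ± 2.4 and 39.4 ± 2.89 FPKM (SD, n = 3), a log2 change of 0.12 (95% confidence interval -0.07 to 0.30, limma adjusted p 0.344).

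Sprouty genes encode adaptor proteins that are induced by receptor signalling and dampen RAS and RAF activation. SPRY1 (ENSG00000164056.11, chromosome 4, 123396795 to 123403760, plus strand) measured 22.1, 22.5 and 25.6 FPKM in wild type replicates 1 to 3, against 9.28, 9.37 and 8.42 FPKM in IK-KO replicates 1 to 3. Every IK-KO labelled library lay far below every wild type library, and the highest upper confidence bound in IK-KO (11 FPKM) was below the lowest lower bound in wild type (19.8 FPKM). Means were 23.4 ± 1.89 and 9.02 ± 0.527 FPKM (SD, n = 3), or -1.28 on the log2 scale (limma adjusted p 0.000155, SE 0.08).

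SPRY2 (ENSG00000136158.12, chromosome 13, 80335976 to 80341126, minus strand) moved the other way. Its values were 1.80, 1.93 and 1.70 FPKM in wild type replicates 1 to 3, against 6.76, 7.52 and 7.26 FPKM in IK-KO replicates 1 to 3. The groups were far apart here too, with upper bounds of at most 2.35 FPKM in wild type and lower bounds of at least 5.88 FPKM in IK-KO. Means were 1.81 ± 0.119 and 7.18 ± 0.389 FPKM (SD, n = 3), a ratio of 3.96 on the FPKM scale and a change of 1.54 on the log2(FPKM + 1) scale (limma adjusted p 0.000174, SE 0.11). This was the largest change among the 7 tested genes.

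SPRY4 (ENSG00000187678.9, chromosome 5, 142310427 to 142326455, minus strand) was near the limit of detection. Its values were 0.0386, 0.0458 and 0 FPKM in wild type replicates 1 to 3, against 0.246, 0.168 and 0.215 FPKM in IK-KO replicates 1 to 3. The groups did not overlap, yet the lower confidence bound was 0 in all 6 libraries. With a mean of 0.119 FPKM it was not tested. It was called only when low genes were kept in the test (limma adjusted p 0.0220, log2 change 0.23).

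Summed per library, SPRY1, SPRY2 and SPRY4 reached 24.0, 24.5 and 27.3 FPKM in wild type, against 16.3, 17.1 and 15.9 FPKM in IK-KO replicates 1 to 3. The gain in SPRY2 was thus smaller in FPKM than the loss of SPRY1. SPRY2 made up 7.22% ± 0.882 of the sum in wild type and 43.8% ± 2.12 in IK-KO (SD, n = 3). The level of SPRY1 was 13.0 ± 1.83 times that of SPRY2 in wild type and 1.26 ± 0.108 times in IK-KO (SD, n = 3). These sums describe the levels and carry no test.

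**Figure D2:**
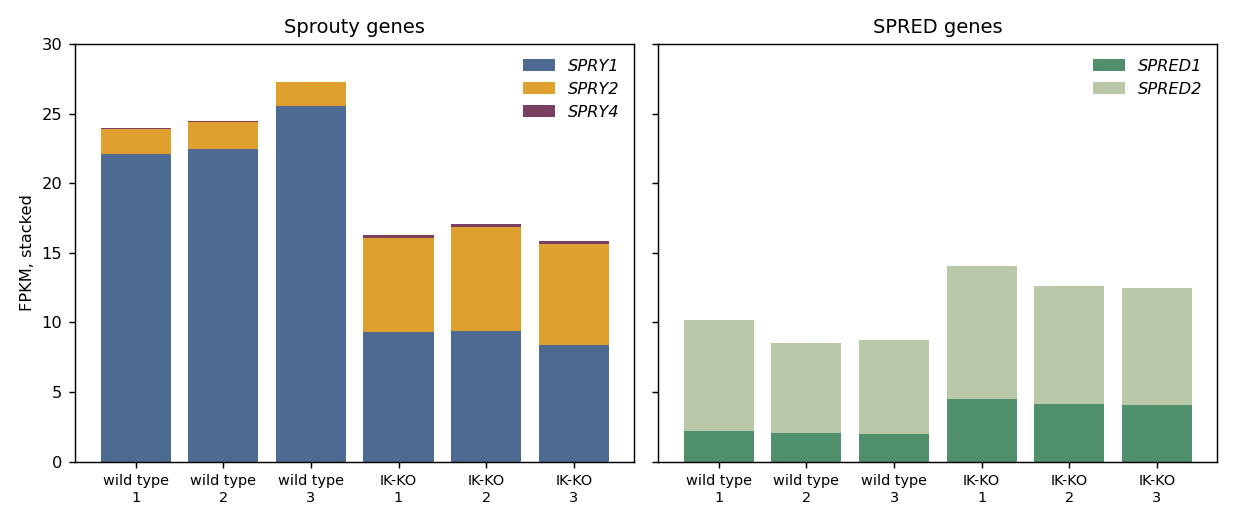
Stacked FPKM of the Sprouty genes (left) and SPRED genes (right) in each of the 6 libraries, 1 bar per library, on a shared linear axis from 0. The Sprouty bars are lower and hold a larger SPRY2 part in the 3 IK-KO labelled libraries (15.9 to 17.1 FPKM) than in wild type (24.0 to 27.3 FPKM).

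The upstream sequences of SPRY1, SPRY2 and SPRED1 are shown because these are the 3 feedback genes with a called change whose RefSeq promoters were at hand. RefSeq (GRCh38.p14) promoters matched 7 of the 10 genes, with 11 start sites among them; DUSP4, DUSP5 and ETV5 had none. Given are the 250 bases before the outermost start, 5′ to 3′ on the strand of the gene, with matches to the searched motifs in capitals. SPRY1 lies at chr4:123396545-123396794 (plus strand), SPRY2 at chr13:80341127-80341376 (minus strand) and SPRED1 at chr15:38252586-38252835 (plus strand).
SPRY1: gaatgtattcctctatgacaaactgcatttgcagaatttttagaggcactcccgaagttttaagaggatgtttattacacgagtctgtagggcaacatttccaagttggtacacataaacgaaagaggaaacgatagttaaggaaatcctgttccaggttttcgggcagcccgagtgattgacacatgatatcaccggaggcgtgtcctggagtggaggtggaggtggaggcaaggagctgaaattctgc
SPRY2: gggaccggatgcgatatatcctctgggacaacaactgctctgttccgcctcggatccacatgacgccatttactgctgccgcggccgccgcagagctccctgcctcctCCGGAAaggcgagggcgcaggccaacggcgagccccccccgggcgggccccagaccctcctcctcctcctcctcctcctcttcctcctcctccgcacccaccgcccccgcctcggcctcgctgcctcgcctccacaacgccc
SPRED1: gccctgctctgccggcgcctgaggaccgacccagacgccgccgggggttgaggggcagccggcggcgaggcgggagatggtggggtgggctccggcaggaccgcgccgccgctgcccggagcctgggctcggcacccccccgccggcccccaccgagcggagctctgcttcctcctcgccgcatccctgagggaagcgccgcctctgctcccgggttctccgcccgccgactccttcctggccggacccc
The motifs searched on both strands were TGGGAA, a core sequence bound by IKAROS, and CCGGAA, a core sequence bound by ETS factors such as ETV5; matches may share bases.

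In these 3 windows, SPRY2 held 1 ETS core, whose first base lay 142 bases before the start, and no IKAROS core. The windows of SPRY1 and SPRED1 held neither. A second RefSeq start of SPRY1, at the end of chr4:123398136-123398385, had 1 IKAROS core starting 223 bases and 1 ETS core starting 67 bases before it. No other window of the 7 genes held either motif. Of all 35116 RefSeq windows of the same length, 20.8% held the IKAROS core and 14.5% the ETS core. These are matches of letters and show no binding, and gene-level FPKM does not tell which start was used.

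SPRED proteins, relatives of Sprouty, restrain RAS by placing neurofibromin at the membrane. SPRED1 (ENSG00000166068.13, chromosome 15, 38252836 to 38357249, plus strand) measured 2.19, 2.07 and 1.97 FPKM in wild type replicates 1 to 3, against 4.52, 4.12 and 4.11 FPKM in IK-KO replicates 1 to 3. All 3 IK-KO labelled libraries lay above all wild type libraries, and their bounds (lowest 3.46 FPKM) did not meet those of wild type (highest 2.79 FPKM). Means were 2.08 ± 0.111 and 4.25 ± 0.236 FPKM (SD, n = 3), or 0.77 on the log2 scale (limma adjusted p 0.00391, SE 0.11).

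SPRED2 (ENSG00000198369.10, chromosome 2, 65310851 to 65432637, minus strand) measured 8.02, 6.49 and 6.75 FPKM in wild type replicates 1 to 3, against 9.5, 8.50 and 8.34 FPKM in IK-KO replicates 1 to 3. The groups did not overlap, but wild type replicate 1 (8.02 FPKM) came close to the lowest IK-KO labelled library (8.34 FPKM). Its log2 change of 0.28 (95% confidence interval 0.03 to 0.52) was not called (limma adjusted p 0.112). SPRED1 and SPRED2 together summed to 9.16 ± 0.909 FPKM in wild type and 13.0 ± 0.867 FPKM in IK-KO (SD, n = 3).

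The 3 phosphatases, nuclear DUSP4 and DUSP5 and cytoplasmic DUSP6, were all scarce. DUSP6 (ENSG00000139318.8, chromosome 12, 89347235 to 89352501, minus strand), which acts on ERK selectively, measured 2.85, 2.71 and 4.52 FPKM in wild type replicates 1 to 3, against 3.20, 2.41 and 4.01 FPKM in IK-KO replicates 1 to 3. Replicate 3 was the highest of its group in both cases and the groups overlapped throughout. Means were 3.36 ± 1.01 and 3.21 ± 0.797 FPKM (SD, n = 3). The log2 change of -0.05 was not called (limma adjusted p 0.908), with a 95% confidence interval of -0.54 to 0.45. Among the 7 tested genes DUSP6 varied most within wild type, with an SD of 1.01 FPKM on a mean of 3.36, against SDs of 5.36% to 11.8% of the mean for the other 6. A long noncoding gene on the opposite strand (at most 0.243 FPKM in any library) overlaps DUSP6.

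DUSP4 (ENSG00000120875.9, chromosome 8, 29333064 to 29350684, minus strand), a nuclear phosphatase that ERK signalling induces, measured 0.426, 0.357 and 0.315 FPKM in wild type replicates 1 to 3, against 0.666, 0.884 and 0.593 FPKM in IK-KO replicates 1 to 3. Each IK-KO labelled library was above each wild type library, though the confidence bounds met (0.554 FPKM at the top of wild type, 0.433 FPKM at the bottom of IK-KO). Its mean of 0.540 FPKM was under the filter. It was not called with a filter of 0.5 FPKM (limma adjusted p 0.208) or with none (limma adjusted p 0.109). DUSP5 (ENSG00000138166.6, chromosome 10, 110497907 to 110511533, plus strand), a nuclear phosphatase specific for ERK, measured 0.411, 0.273 and 0.489 FPKM in wild type replicates 1 to 3, against 0.378, 0.583 and 0.7 FPKM in IK-KO replicates 1 to 3. These groups overlapped, and DUSP5 was not called without the filter (limma adjusted p 0.525).

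ETV5 (ENSG00000244405.8, chromosome 3, 186046314 to 186110318, minus strand), the transcription factor of the set, measured 2.86, 2.48 and 2.27 FPKM in wild type replicates 1 to 3, against 5.03, 7.03 and 7.45 FPKM in IK-KO replicates 1 to 3. All IK-KO labelled libraries were higher, with replicate 1 nearest to wild type: its lower bound of 3.42 FPKM lay below the top bound of wild type replicate 1, 4.18 FPKM. Means were 2.54 ± 0.298 and 6.50 ± 1.30 FPKM (SD, n = 3), a ratio of 2.56 on the FPKM scale and 1.07 on the log2 scale (limma adjusted p 0.00407, SE 0.16). ETV5 has 14 annotated transcripts in GENCODE 44, and a neighbour on the same strand, DGKG, overlaps it at up to 0.644 FPKM.

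**Figure D3:**
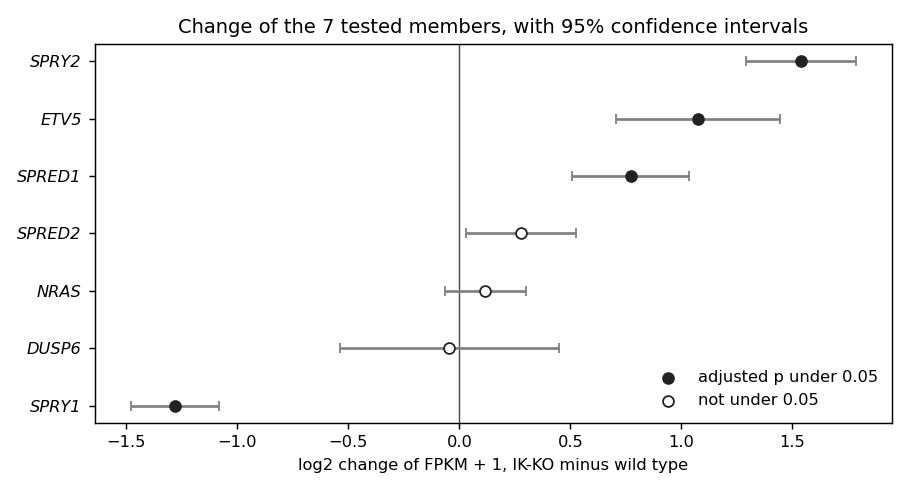
Log2 change of FPKM + 1 (IK-KO labelled minus wild type, x axis) of the 7 tested genes with 95% confidence intervals from limma; filled points had an adjusted p under 0.05. SPRY2, ETV5 and SPRED1 lie to the right of 0 (1.54, 1.07 and 0.77), SPRY1 lies to the left (-1.28), and the intervals of NRAS and DUSP6 span 0.

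The order of levels shifted accordingly. In wild type it ran from NRAS (79.4th percentile of all tested genes) and SPRY1 (69.3rd) over SPRED2 (36.9th), DUSP6 (21.5th), ETV5 (16.4th) and SPRED1 (12.9th) to SPRY2 (10.6th), with DUSP5, DUSP4 and SPRY4 below. Of neighbours in this order, DUSP6 and ETV5 overlapped, as did DUSP5 and DUSP4. In the libraries labelled IK-KO the order was NRAS, SPRY1, SPRED2, SPRY2, ETV5, SPRED1, DUSP6, DUSP4, DUSP5 and SPRY4. There SPRY1 overlapped SPRED2, SPRY2 overlapped ETV5 and DUSP4 overlapped DUSP5, so that SPRY1 no longer stood apart. Genes near the 7 tested ones showed little shared shift: the median log2 change of the 50 nearest tested neighbours on each side lay between -0.04 and 0.04. Such a median does not show how far single neighbours moved.

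Among the 7 tested feedback genes SPRY2 had the largest called change, and its pattern over the 6 libraries was compared with that of every tested gene. The closest by Pearson r of log2(FPKM + 1) were KLHDC3 (r = 0.9997), SLC7A5 (r = 0.9996), an amino acid transporter, and STAT3 (r = 0.999), a transcription factor of cytokine signalling. In wild type and IK-KO, KLHDC3 was at 72.6 ± 0.409 and 88.5 ± 1.08 FPKM, SLC7A5 at 105 ± 3.03 and 178 ± 4.17 FPKM and STAT3 at 55.3 ± 1.60 and 84.0 ± 1.67 FPKM (SD, n = 3), a description with no test. The 6 points fall into the 2 groups, so a high r here chiefly describes a difference between groups with little spread inside them.

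The rest of the RAS and ERK pathway was described with 79 further genes in 9 lists by role. Of these, 56 passed the filter and 14 were called (25.0%, beside 19.9% of all tested genes), 11 higher and 3 lower, with a median log2 change of 0.05. Receptor adaptors and RAS exchange factors held 4 called genes of 10 tested (40%, beside the same 19.9%), 3 of them higher. GAB2, a docking adaptor, rose most in these lists, from 1.53 ± 0.277 to 6.45 ± 0.45 FPKM (SD, n = 3; log2 change 1.56, limma adjusted p 0.000387). FRS2, the docking protein of fibroblast growth factor receptors, gained 0.50 on the log2 scale (limma adjusted p 0.0475, a call kept in 5 of 14 alternatives, over which it ran from 0.0395 to 0.137), and the adaptor GRB2, chosen after its values were seen, gained 0.36 (limma adjusted p 0.00198). RASGRP1, the main RAS exchange factor of thymocytes, fell by 0.37 (limma adjusted p 0.0324).

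HRAS, another RAS isoform, fell from 37.0 ± 0.231 to 28.8 ± 2.25 FPKM (SD, n = 3; log2 change -0.35, limma adjusted p 0.0122). Neurofibromin (NF1), the partner of SPRED proteins, was at 12.2 and 14.0 FPKM and not called (limma adjusted p 0.234). Of 8 tested scaffolds and modulators 3 were called (37.5%, beside 19.9% of all tested genes). All 3 were higher: LAMTOR2 (0.36), PPP2CA (0.31) and PEBP1 (0.30). LAMTOR2, which lies on chromosome 1 among genes with a median change of 0.25, was not called once the median of its nearby genes was subtracted (change 0.11, limma adjusted p 0.225).

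Downstream of ERK, 1 of 7 activated kinases was called (14.3%, beside 19.9% of all tested genes). RPS6KA1 fell from 8.91 ± 1.27 to 5.71 ± 0.123 FPKM (SD, n = 3, log2 change -0.55, limma adjusted p 0.0132). Of the other dual-specificity phosphatases 1 of the 5 tested was called, a share near the 19.9% of all tested genes. DUSP16, which prefers JNK and p38 over ERK, rose from 3.54 ± 0.252 to 8.70 ± 0.941 FPKM (SD, n = 3; log2 change 1.09, limma adjusted p 0.000789). Of 19 other ERK-responsive genes 8 were tested and 2 were called (25%, beside the same 19.9%). IER3 gained 0.78 on the log2 scale (limma adjusted p 0.0157), or 0.50 after subtracting nearby genes on chromosome 6 (limma adjusted p 0.0802), and EGR1 gained 0.72 (limma adjusted p 0.0406), or 1.27 with a pseudocount of 0.1, having passed the filter only through its values in IK-KO (1.77 against 0.659 FPKM) and not being called after subtracting nearby genes (limma adjusted p 0.0649). ETV1, ETV4, FOSL1, CCND1, PHLDA1, EPHA2 and EPHA4, common readouts of ERK activity in other tissues, all had group means under 0.2 FPKM. SPRY3 and SPRED3 had means of 0.112 FPKM or less in both groups.

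**Figure D4:**
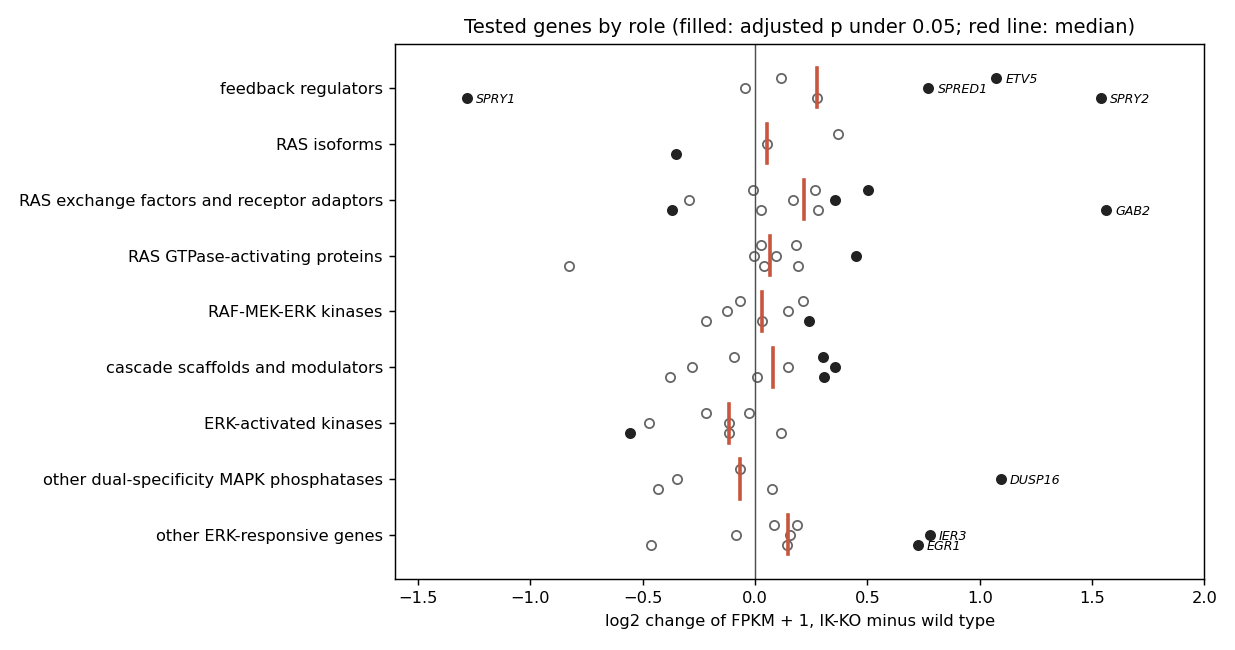
Log2 change of FPKM + 1 (IK-KO labelled minus wild type, x axis) of the 7 tested feedback regulators (top) and of 56 other tested pathway genes by role, 1 point per gene, filled where the adjusted p was under 0.05, with list medians as red lines. Most points lie within 0.5 of 0, and GAB2 (1.56) and DUSP16 (1.09) lie as far out as the feedback regulators.

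Some of these pathway calls lay near the threshold and were lost in refits with fewer libraries, in which fewer genes of all kinds were called (1717 to 2037, against 2511 with all 6). Without each of 4 libraries in turn (wild type replicates 1 and 2, IK-KO replicates 2 and 3) RASGRP1 was not called (limma adjusted p 0.0718 to 0.0999). FRS2 lost its call without any library but wild type replicate 1 (limma adjusted p 0.0590 to 0.131) and EGR1 without any but IK-KO replicate 3 (0.0769 to 0.123). PPP2CA was not called without IK-KO replicate 1 or 2 (limma adjusted p 0.0538 and 0.0540), nor IER3 without IK-KO replicate 2 (limma adjusted p 0.0559). The changes themselves kept their direction over the 6 refits, between -0.42 and -0.31 for RASGRP1, between 0.39 and 0.60 for FRS2 and between 0.59 and 0.88 for EGR1. In all, 8 of the 56 pathway genes were called without IK-KO replicate 2. SPRY1, SPRY2, SPRED1 and ETV5 were called without each of the 6 libraries.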

How the data were processed

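RNA-seq tables of 6 libraries were analysed. The authors deposited FPKM values, scaled by them for transcript length and library depth, with lower and upper confidence bounds, in the layout of Cufflinks. The submitters' processing notes name STAR 2.6.1c, Cufflinks 2.2.1, HOMER 4.10 and hg38 without roles; annotation and strand setting are not given in the sources used here, so overlapping and antisense genes are uncertain. All 49727 identifiers with the same version in GENCODE 44 lay at the same position.

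Rows of 1 identifier were summed (110 had several), starts were counted from 1, and 29 identifiers with a failed estimate and the Y copies of pseudoautosomal genes were left out. The values are no counts, and none were rebuilt from them. Changes were tested on log2(FPKM + 1), which understates changes of low genes, with limma 3.58.1 in R 4.3.3 (eBayes with a trend, two-sided), with p-values adjusted by Benjamini-Hochberg where mean FPKM was at least 1; an adjusted p under 0.05 is a call. The fit was also run on simulated data with normal noise drawn independently for each library. Such data cannot show whether the real libraries are independent. All 10 regulators were named, and from each pathway list at most 3 called genes with the largest change, and the 3 genes most like SPRY2; some genes of these lists are not reported here. Regulators, lists, motifs and tests were chosen with earlier results of these data known. Alternatives changed scaling, pseudocount, filter, variance model, replicate block, neighbours' changes, call limits and each library in turn.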

Additional observations from a re-analysis of the deposited data

How the results depend on the processing

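The 4 called regulators kept their call and direction in all 14 refits: SPRY1 between -1.36 and -1.22 on the log2 scale, SPRY2 between 1.5 and 1.93, SPRED1 between 0.73 and 1.0 and ETV5 between 0.98 and 1.31. NRAS, SPRED2 and DUSP6 were called in none, and the sign of DUSP6 varied (-0.18 to 0.14). The count of called regulators was 4 in 13 refits and 5 without a filter (with SPRY4). It was 3 under the study's limits of an unadjusted p under 0.05 and 2-fold, set on the log2(FPKM + 1) scale. Those limits left 2 of the 56 pathway genes and 446 of all genes in place of 14 and 2511; with an adjusted p and 2-fold, 403 genes passed. Without each library in turn between 8 and 13 pathway genes were called, the lowest without IK-KO replicate 2. The labels name no pairing by replicate number. After group means were taken off, wild type and IK-KO libraries that share a number had correlations of 0.067, 0.025 and 0.005. With 3 libraries a group these values cannot decide whether libraries were paired. In a fit with the replicate block, 4 regulators, 10 pathway genes and 1802 genes in all were called, and RASGRP1 (limma adjusted p 0.0831), FRS2 (0.117) and EGR1 (0.0837) were not. With all 6 libraries FRS2 was also not called without a filter (limma adjusted p 0.137), with one of 0.5 FPKM (0.0538) or without the variance trend (0.0629), nor were RASGRP1 (0.0777), EGR1 (0.0849) and IER3 (0.0605) without a filter. Other scalings moved the median change of all genes from 0.02 to 0.00. SPRY4, DUSP4 and DUSP5 lay under 1 FPKM, where the log2(FPKM + 1) scale understates a change: the ratio of group means was 1.95 for DUSP4.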

Other observations

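A pair of further RAS regulators, named after their values were seen, stood out. RASGRP3, a RAS exchange factor best known from B cells, was under the filter, at 0.724, 0.606 and 0.576 FPKM in wild type replicates 1 to 3, against 0.0399, 0.0717 and 0.0317 FPKM in IK-KO replicates 1 to 3. RASAL3, a RAS GTPase-activating protein of lymphocytes, was the least even of the tested GTPase-activating proteins, at 9.42, 6.05 and 17.5 FPKM in wild type replicates 1 to 3, against 6.94, 5.46 and 3.74 FPKM in IK-KO replicates 1 to 3, and was not called (log2 change -0.83, limma adjusted p 0.150).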
